A study of Mus musculus with 29 samples.

Results

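The comparison set mouse macrophages kept for 24 h with interleukin-4 (IL-4) plus interleukin-10 (IL-10) against unstimulated macrophages. Its 6 arrays were chosen by title: IL-4 plus IL-10 replicates 1 to 3 against unstimulated replicates 6 to 8, out of 29 arrays in the series. The cells were macrophages grown from bone marrow, and the donor mice were C57BL/6, wild type and 8 weeks old. The marrow was held for 7 days in Teflon bags with the macrophage growth factor CSF-1 at 10 ng/ml. Both groups also received CSF-1 at 10 ng/ml during the 24 h, and the stimulated group had IL-4 and IL-10 at 10 ng/ml each. From 75 ng of total RNA per sample, RNA abundance was read as log2 intensity on arrays of the Affymetrix 3' type, which hold 22690 probe sets. The other groups drawn on below are IL-10 (3 arrays), IL-4 (5), IL-4 plus IL-6 (5) and unstimulated replicates 1 to 5, from the same mouse strain and protocol, with 10 ng/ml of each cytokine. Nothing in the labels ties the arrays to separate mice or cultures. The p-values therefore reflect only how these arrays scatter, which may be technical.

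IL-4 binds a receptor containing the chain Il4ra and acts mainly through the transcription factor STAT6, which drives the alternative activation of macrophages: arginase, resistin-like and chitinase-like proteins, lectins and type 2 chemokines. IL-10 binds Il10ra with Il10rb and acts mainly through STAT3, which induces the feedback inhibitor Socs3 and restrains inflammatory genes. The series asked how such STAT3 cytokines and IL-4 act together, with cathepsin secretion and IRE1, a sensor of unfolded proteins, among its subjects.

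Of 7153 genes tested, 4753 were called (66.4%), 2410 higher with IL-4 plus IL-10 (33.7%) and 2343 lower (32.8%). A gene was called when its adjusted p was under 0.05. Counts of calls in the gene lists below are to be read beside these shares over all genes tested. With an absolute log2 difference of at least 1 as well, 527 remained (7.37%), of which 251 genes were higher (3.51%) and 276 lower (3.86%). On 4687 genes (65.5%) the 3 stimulated and the 3 unstimulated arrays did not overlap. The 3 stimulated arrays correlated with each other at 0.9966 to 0.9974 and the 3 unstimulated ones at 0.9962 to 0.9968, against 0.9782 to 0.9828 between the groups. As a check of RNA integrity, Actb was read at its 3' and its 5' end, and the log2 difference of these controls was 0.44, 0.377 and 0.441 with IL-4 plus IL-10 and 0.504, 0.366 and 0.453 without, so the groups overlapped.

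**Figure D1:**
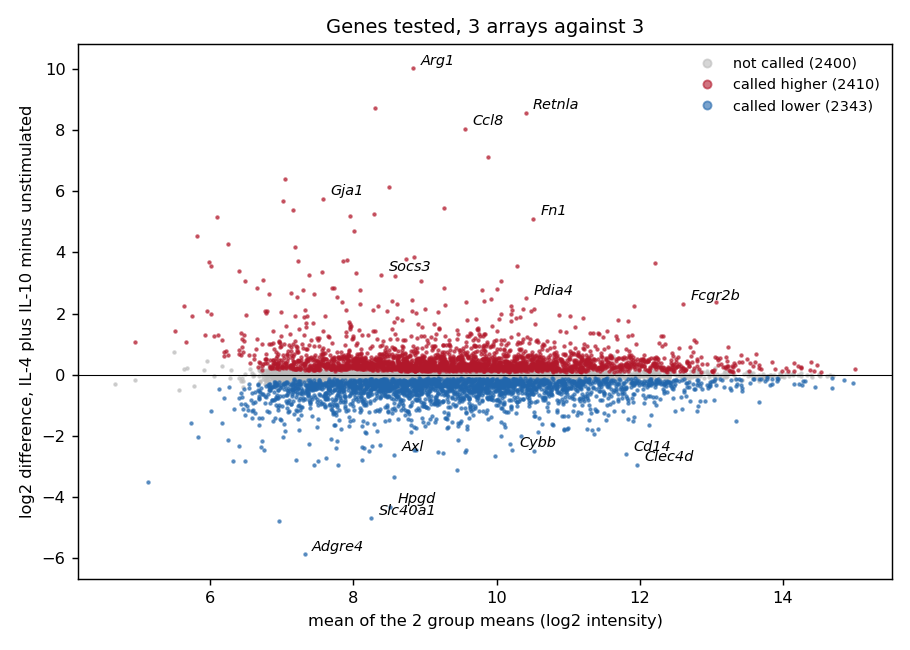
Log2 difference between IL-4 plus IL-10 (3 arrays) and unstimulated replicates 6 to 8 (3 arrays) against the mean of both group means, 1 point for each of the 7153 genes tested. Red points were called higher (2410), blue points lower (2343) and grey points were not called, and Arg1 is drawn at 10.02, with its unstimulated mean under the filter.

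All 9 macrophage markers on the array had means over the intensity filter (log2 6.99, the median of all values) in both groups. Of these 9, 0 were called higher and 6 lower, with a median of -0.42, and their summed linear intensity was 68513 to 74333 with IL-4 plus IL-10 and 92202 to 95538 without. Csf1r, the CSF-1 receptor, was at 14.18 against 14.37, and Cd68, a lysosomal macrophage protein, at 13.77 against 13.81. Other markers of this list fell further, among them Cd14 (log2 -2.60), Itgam (-0.80) and Fcgr1 (-0.75). Neutrophil markers summed to 5110 to 7803 against 7889 to 11407, with 5 and 6 of 8 over the filter, and 4 of the 6 tested were lower (median -0.49), or 2 without unstimulated replicate 7 or without IL-4 plus IL-10 replicate 3. B-lineage markers summed to 1413 to 1562 against 2310 to 2642, and only Ighm of the 7 was over the filter. Of the markers of T and NK cells (8), of mast cells, basophils and eosinophils (9) and of fibroblasts (9), 0 had a mean over the filter in either group. Dendritic cell markers summed to 1306 to 1877 against 967 to 1251, and Cd209a and Ccr7 passed the filter only with IL-4 plus IL-10. Platelet and erythroid markers summed to 4161 to 4677 against 3621 to 4098, with 3 of 7 over the filter in both groups. The part of other cells in the results was not tested. These are bulk samples, in which fewer cells of a kind and less RNA per cell cannot be told apart.

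In the list of alternative activation, chosen with such results known, 33 of 34 genes tested were higher (median 3.09) and 1 was lower, Il1rn, the IL-1 receptor antagonist (-0.40). The largest increases were in genes of alternative activation, chemokines and a gap junction protein, which went from near the lowest intensities of the array to high ones. Arg1, arginase 1 of the urea cycle, was at log2 13.93, 13.75 and 13.86 on the 3 stimulated arrays and 3.71, 3.84 and 3.93 on the unstimulated ones. Retnla, a secreted resistin-like protein, was at 14.56, 14.73 and 14.76 against 6.40, 5.86 and 6.12. Ccl8, a chemokine that attracts monocytes and T cells, was at 13.37, 13.71 and 13.65 against 5.86, 5.11 and 5.62. In all 3 genes every stimulated array stood far above every unstimulated one. The differences were 10.02 ± 0.11 (SE) for Arg1, 8.56 ± 0.13 for Retnla and 8.04 ± 0.20 for Ccl8, with adjusted p of 2.97e-30, 3.97e-27 and 5.87e-22.

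Their unstimulated means lay under the filter, where background may set the value, so no fold is given for such genes and their order by size is not read. Fn1, fibronectin, a matrix protein that cells attach to, was over the filter in both groups. It was at 12.93, 13.13 and 13.11 with IL-4 plus IL-10 and 7.97, 8.08 and 7.83 without, a 34.2-fold rise (log2 5.09 ± 0.14, adjusted p = 3.55e-21), and its second probe set gave 4.88. On average Fn1 was at 7.96 on unstimulated replicates 6 to 8 and 9.20 on replicates 1 to 5, so the fold depends on the control arrays. The other 12 of the 16 largest increases were Rnase2a (an eosinophil-associated ribonuclease), the chemokines Ccl24, Ccl7 and Ccl12, Ddx4, the lectin Mgl2, Gja1, the chitinase-like Chil4, Pdcd1lg2 (the ligand PD-L2), Socs2, Cdh1 (E-cadherin) and the arginine transporter Slc7a2. They ranged from 8.73 for Rnase2a to 4.72 for Slc7a2. Ddx4, an RNA helicase best known from germ cells, was at 10.23, 10.11 and 10.44 with the cytokines and 3.66, 3.77 and 4.10 without. Gja1, the gap junction protein connexin 43, was at 10.29, 10.49 and 10.55 against 4.64, 4.61 and 4.83, a log2 difference of 5.75. Gja1 has 6 probe sets, and of the other 4 that passed the filter 3 gave 4.98 to 5.51 and 1 gave 0.89. By the probe sets used, both genes were under the filter on every unstimulated array and over it on every stimulated one. Rnase2a, Chil4, Ccl7, Ccl12, Ctla2b, Fcgr2b and the Cd209 lectins have closely similar relatives that may share probes, which was not tested.

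The largest decreases were in receptors, an iron exporter and a prostaglandin-degrading enzyme. Adgre4, an adhesion receptor of myeloid cells, was at 4.68, 4.56 and 3.89 with IL-4 plus IL-10 and 10.42, 10.14 and 10.20 without. Slc40a1, ferroportin, the only known exporter of iron from cells, was at 5.97, 5.87 and 5.87 against 10.63, 10.58 and 10.57. Hpgd, which inactivates prostaglandins, was at 6.501, 6.49 and 6.08 against 10.93, 10.62 and 10.48. On these 3 genes the stimulated arrays fell from over to under the filter, and the groups lay well apart (log2 -5.87 ± 0.27, -4.69 ± 0.14 and -4.32 ± 0.16). Further probe sets gave -4.05 for Adgre4 and -3.74 for Slc40a1.

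Over the filter in both groups were Clec4d, Ctla2b and Ms4a6b. Clec4d, a C-type lectin that senses mycobacterial glycolipid, was at 10.66, 10.64 and 10.18 against 13.48, 13.38 and 13.44, 7.67-fold lower (adjusted p = 3.38e-19). Ctla2b, which resembles the propeptide of cysteine cathepsins, was 8.62-fold lower, at 7.89 against 10.996. Ms4a6b, a 4-span membrane protein, was 6.37-fold lower, at 8.64 against 11.31. The remaining 10 were the pentraxin Nptx1, the Toll-like receptor Tlr2, Arap3, the neutrophil chemokines Cxcl2 and Cxcl1, the fractalkine receptor Cx3cr1, Spata13, the nuclear NF-kappaB regulator Nfkbiz, the matrix protein Thbs1 and the interferon-induced Ifit3. Their stimulated means lay between 4.57 (Nptx1) and 6.90 (Tlr2), under the filter, and their unstimulated means between 7.71 (Cxcl1) and 10.24 (Tlr2).

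**Figure D2:**
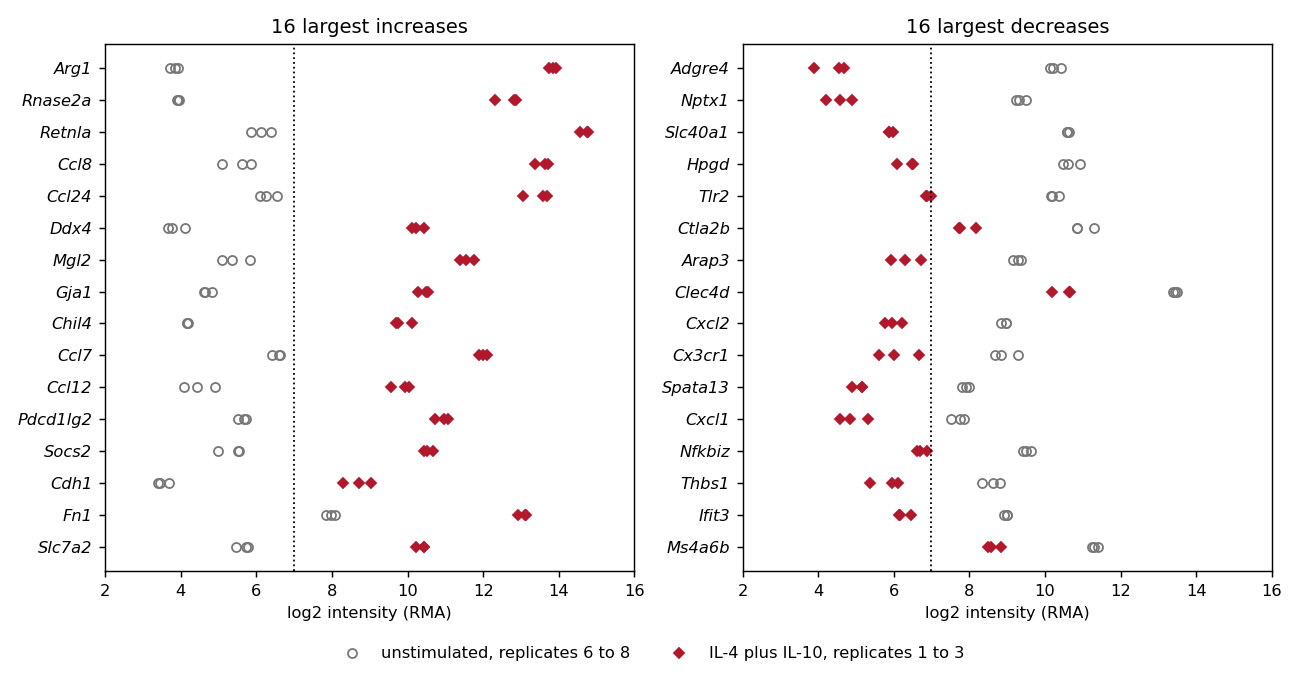
Log2 intensity of the 16 largest increases (left) and the 16 largest decreases (right) on each array, red diamonds for IL-4 plus IL-10 replicates 1 to 3 and open grey circles for unstimulated replicates 6 to 8. The dotted line is the intensity filter (log2 6.99), and the groups overlap on none of the 32 genes shown.

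Dimers of STAT proteins bind DNA at a TTC and a GAA that face each other. A spacing of NNN between them (TTCNNNGAA) is bound by STAT3 among others, and STAT6 also binds the wider TTCNNNNGAA. Both strings are their own reverse complements, so a match counts for both strands, and 1 TTC cannot start both. Promoters of 250 bases before to 50 bases after the transcription start were taken from RefSeq (GRCm38.p6), where 9 of the 16 largest increases and 11 of the 16 largest decreases had an entry. Among the 9, Chil4 held the narrow string, and Retnla and Pdcd1lg2 held the wide one. Among the 11, Spata13 held the narrow string and Ms4a6b the wide one. Socs3 held the narrow one. The promoters of 4 genes that rose are shown with these matches in capitals, 2 of each spacing.
Retnla: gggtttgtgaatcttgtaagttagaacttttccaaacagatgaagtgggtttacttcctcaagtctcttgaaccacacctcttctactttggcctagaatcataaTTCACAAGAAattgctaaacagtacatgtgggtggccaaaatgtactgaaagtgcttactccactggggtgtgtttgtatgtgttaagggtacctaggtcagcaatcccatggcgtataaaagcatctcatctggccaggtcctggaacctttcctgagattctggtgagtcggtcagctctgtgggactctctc
Pdcd1lg2: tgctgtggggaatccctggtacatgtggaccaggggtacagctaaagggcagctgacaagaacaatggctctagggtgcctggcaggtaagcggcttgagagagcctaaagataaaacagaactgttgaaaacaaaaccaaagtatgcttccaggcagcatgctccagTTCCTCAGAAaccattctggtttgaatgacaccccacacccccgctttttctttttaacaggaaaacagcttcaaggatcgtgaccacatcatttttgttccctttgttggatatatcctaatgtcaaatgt
Chil4: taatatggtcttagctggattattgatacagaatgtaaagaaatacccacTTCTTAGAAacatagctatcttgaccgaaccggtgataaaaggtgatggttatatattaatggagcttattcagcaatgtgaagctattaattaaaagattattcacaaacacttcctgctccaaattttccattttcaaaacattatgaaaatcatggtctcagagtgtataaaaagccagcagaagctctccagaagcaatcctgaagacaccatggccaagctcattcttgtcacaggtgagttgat
Socs3: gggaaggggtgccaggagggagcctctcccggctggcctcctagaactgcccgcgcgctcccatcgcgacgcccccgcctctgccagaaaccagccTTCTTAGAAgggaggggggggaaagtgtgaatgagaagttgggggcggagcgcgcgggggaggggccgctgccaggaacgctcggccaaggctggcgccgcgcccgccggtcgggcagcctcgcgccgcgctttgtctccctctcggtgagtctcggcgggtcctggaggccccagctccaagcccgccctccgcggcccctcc
The windows are chr16:48842359-48842658 (Retnla, plus strand), chr19:29410669-29410968 (Pdcd1lg2, plus strand), chr3:106219430-106219729 (Chil4, minus strand) and chr11:117969317-117969616 (Socs3, minus strand). The capitals begin at base -145 from the start in Retnla, -82 in Pdcd1lg2, -200 in Chil4 and -154 in Socs3.

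The wide string was present in the promoters of 24 of 199 genes that were called at least 1 log2 unit higher (12.1%), in 10 of 207 called at least 1 lower (4.83%) and in 399 of all 5914 tested genes with an entry (6.75%). The narrow string was present in 17 of 199 (8.54%), 24 of 207 (11.6%) and 476 of 5914 (8.05%). These shares describe the letters in the windows and were not tested.

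Of 25 cytokine receptor genes tested, 9 were higher (36%) and 11 lower (44%), near the 33.7% and 32.8% over all genes, with a median of -0.09 against 0.00. Il4ra, the IL-4 receptor chain, was at 9.65, 10.10 and 9.80 against 7.67, 7.95 and 7.71, a 4.22-fold rise (log2 2.08 ± 0.14, adjusted p = 6.89e-13). A second probe set of Il4ra gave 1.54, and the third was not called (0.22, adjusted p = 0.212). Il10ra, the IL-10 receptor chain, fell 2.1-fold, from 9.11, 9.18 and 9.01 to 7.94, 8.19 and 7.94. The groups did not overlap in either gene. Il10rb, the shared second chain of that receptor, was at 12.25 against 12.23 (95% interval of the difference, unadjusted as all such intervals here, -0.057 to 0.11). Il6st, the gp130 chain through which IL-6 signals, rose 4.25-fold to 11.53, while Tgfbr1, a TGF-beta receptor, fell 3.37-fold to 10.13. Il1r1, the signalling IL-1 receptor, went from 5.03, under the filter, to 7.01.

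The SOCS proteins, which switch cytokine receptors off, include targets of both STAT3 and STAT5 or STAT6. Socs3 was at 10.06, 9.94 and 10.09 with IL-4 plus IL-10 and 6.99, 6.60 and 6.66 without (log2 3.27 ± 0.13, adjusted p = 5.39e-18). Socs2 was at 10.52, 10.44 and 10.68 against 4.99, 5.55 and 5.53, and Cish at 9.05, 9.12 and 9.59 against 6.03, 5.82 and 5.79. Socs1 was at 8.28 against 5.18. In these 4 genes no arrays overlapped, and all unstimulated means were under the filter. Elsewhere in the family Socs6 rose 2.19-fold, Socs5 fell by 0.18 on the log2 scale, Socs4 was near the filter (7.05 against 6.87) and Socs7 was not tested.

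Among the STATs, Stat3 rose 1.72-fold to 10.56 and Stat5a 1.45-fold, while Stat5b fell 1.47-fold and Stat6 1.18-fold, the last from 10.82, 10.95 and 10.76 to 10.56, 10.70 and 10.54. The kinase Jak2 rose 3.67-fold, and Jak1 (0.17, 95% interval 0.011 to 0.34) and Tyk2 (0.018, -0.13 to 0.17) were not called. The list of SOCS and JAK-STAT genes had 13 higher and 7 lower of 26 (50% and 26.9%, median 0.18), against 33.7% and 32.8% over all genes. In the list of STAT3-responsive genes 18 were higher and 9 lower of 32 (56.2% and 28.1%, median 0.47). Timp1, a metalloprotease inhibitor, was one of those higher, at 10.64 against 6.84, under the filter.

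Arginine enters through Slc7a2, is split by arginase to ornithine, and ornithine feeds polyamines or proline. Slc7a2 was at 10.44, 10.22 and 10.44 with IL-4 plus IL-10 against 5.46, 5.72 and 5.78, a difference of 4.72, and its other 2 probe sets gave 4.52 and 2.52. Srm, which makes the polyamine spermidine, rose 2.39-fold, from 8.70, 9.16 and 9.08 to 10.22, 10.25 and 10.24. Aldh18a1, the first enzyme of proline synthesis from glutamate, rose 2.24-fold to 9.19. In all 3 the groups were apart. Of the 17 genes tested in this pathway 10 were higher and 5 lower (58.8% and 29.4%, median 0.28), against 33.7% and 32.8% over all genes.

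Genes that put proteins into the endoplasmic reticulum (ER), fold them there and carry them onward rose together. In the list of folding enzymes with targets of IRE1-XBP1 and ATF6, 34 of 44 were higher and 3 lower (median 0.50), and no arrays overlapped in 38. Over all genes tested, 65.5% had no such overlap. Pdia4, a disulfide isomerase of the ER, was at 11.74, 11.53 and 11.71 against 9.10, 9.07 and 9.31, 5.66-fold higher (log2 2.50 ± 0.067, adjusted p = 2.47e-21). Wfs1, an ER membrane protein, rose 2.84-fold, Sdf2l1, an ER chaperone cofactor, 2.57-fold, and Creld2, a stress-induced ER protein, 2.5-fold. Hspa5, the main ER chaperone BiP, rose 1.43-fold, from 13.24, 13.17 and 13.31 to 13.80, 13.65 and 13.81. Xbp1, whose RNA IRE1 splices, rose 1.15-fold (adjusted p = 0.00211), a total level that does not tell the spliced form. Ern1, the gene of IRE1, was under the filter on all 6 arrays (6.62, 6.47 and 6.84 against 6.48, 6.36 and 6.52) and was not tested.

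Translocation and N-glycosylation genes had 39 of 50 higher and 4 lower (median 0.40). Stt3b, a catalytic subunit of the oligosaccharyltransferase, rose 2.09-fold, from 12.21, 12.24 and 12.32 to 13.36, 13.28 and 13.31. Ssr2, of the translocon-associated complex, rose 2-fold, Gmppb, which makes the mannose donor GDP-mannose, 2.3-fold, and the mannosyltransferase Alg3 1.93-fold. Vesicle transport between ER and Golgi had 42 of 59 higher and 5 lower (median 0.28). By the probe sets used, 0 of them differed by 1 log2 unit or more. Its leading genes were the cargo receptors Tmed3 (1.56-fold) and Lman1 (1.52-fold), the COPI subunit Copg1 (1.52-fold) and the COPII subunit Sec13 (1.5-fold). Further probe sets gave log2 differences of 0.72 and 1.13 for Lman1, in place of 0.61, and 0.19 for Copg1, in place of 0.60.

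The list of ATF4 targets and serine synthesis, which answers amino acid shortage and, through PERK, ER stress, had 25 of 28 higher and 1 lower (median 0.71). Atf5, a transcription factor of that response, was at 10.03, 10.22 and 10.00 against 7.74, 8.18 and 7.85, 4.47-fold higher. Asns, asparagine synthetase, rose 2.74-fold, from 8.38, 8.88 and 8.92 to 10.39, 10.01 and 10.14. Nupr1, a stress-induced nuclear protein, rose 2.67-fold and Mthfd2, a mitochondrial folate enzyme, 2.5-fold. The groups did not overlap in 27 of the 28, against 65.5% of all genes tested.

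**Figure D3:**
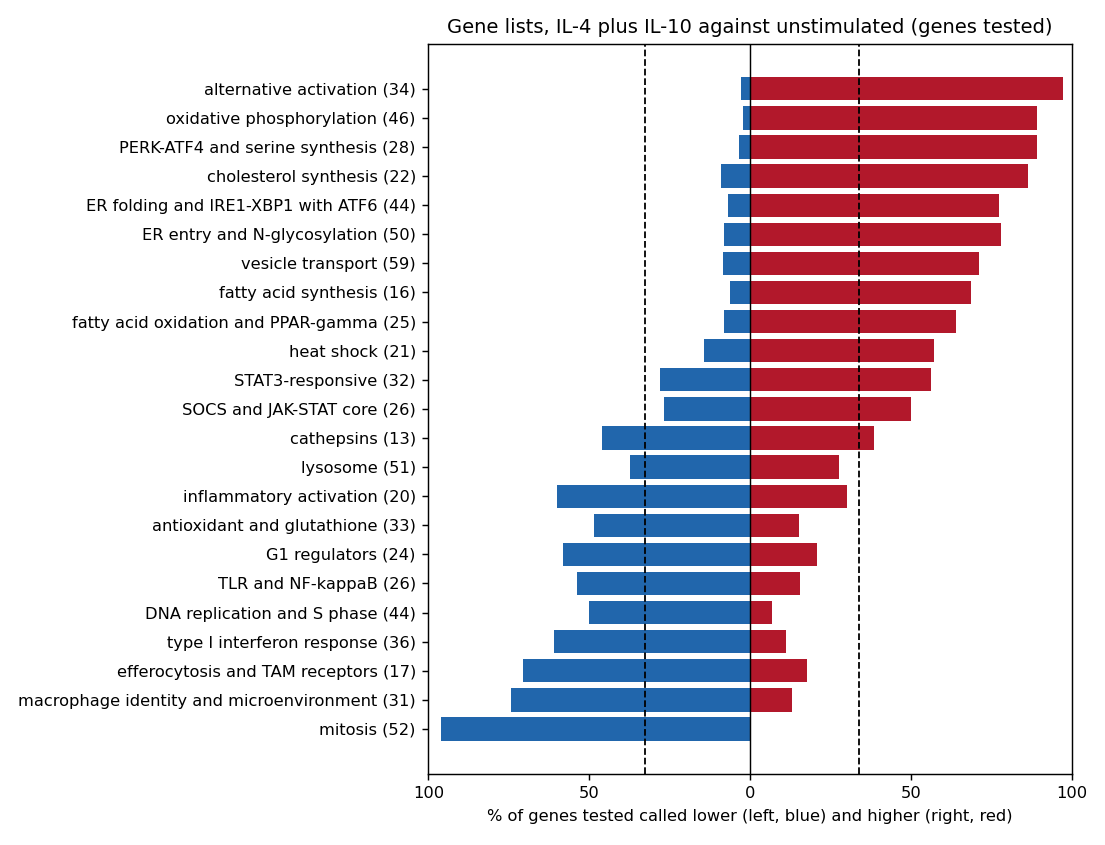
Share of the genes tested in 23 lists that were called lower (blue, left) or higher (red, right) with IL-4 plus IL-10, with the number tested in brackets and the share over all genes tested as dashed lines (32.8% lower, 33.7% higher). Alternative activation, ATF4 targets and oxidative phosphorylation stand furthest to the right and mitosis furthest to the left.

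Enzymes of cholesterol synthesis rose with 19 of 22 higher and 2 lower (median 0.61). Mvd, which makes isopentenyl diphosphate, was at 9.50, 9.68 and 9.59 against 7.66, 7.98 and 7.70, 3.5-fold higher (adjusted p = 9.69e-17). Fdps, farnesyl diphosphate synthase, rose 2.71-fold, Lss, which closes the sterol rings, 2.34-fold and Sqle, squalene epoxidase, 2.02-fold. The 2 lower genes were Lbr (-0.90) and Scap (-0.34), a sterol reductase of the nuclear envelope and the escort of SREBP.

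Fatty acid synthesis had 11 of 16 higher and 1 lower (median 0.39). Scd2, a stearoyl-CoA desaturase, was at 13.04, 13.03 and 13.05 against 10.40, 11.04 and 10.96, 4.72-fold higher, and Fasn, fatty acid synthase, rose 2.49-fold. The related Scd1 passed from 6.65, under the filter, to 9.03, and the desaturase Fads2 was 1.76-fold higher by the probe set used, while its second one was not called (0.21, adjusted p = 0.0739). Genes of cholesterol efflux and the sterol receptor LXR went mostly the other way, with 3 of 15 higher and 10 lower (median -0.30). Apoe, the carrier protein apolipoprotein E, fell 1.85-fold, from 14.06, 14.19 and 14.06 to 12.98, 13.51 and 13.16, and Apoc2, the cofactor of lipoprotein lipase, 2.78-fold. Cyp27a1, the sterol 27-hydroxylase, fell 2.57-fold. Ch25h, which makes 25-hydroxycholesterol, was the exception in size, at 9.26, 8.89 and 9.10 against 5.24, 5.48 and 5.35.

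Subunits of the respiratory chain rose by small amounts in nearly every gene tested: 41 of 46 were higher, 1 was lower (Cox7c, -0.27), and the median was 0.29. The stimulated and unstimulated arrays did not overlap in 41 of the 46, against 65.5% of all genes tested. Uqcrq, a subunit of complex III, was at 11.61, 11.83 and 11.77 with IL-4 plus IL-10 and 10.56, 11.08 and 10.73 without, 1.93-fold higher (adjusted p = 2.42e-10). Uqcrc1, a core subunit of the same complex, rose 1.55-fold, Cyc1, cytochrome c1, 1.5-fold and Ndufc1, of complex I, 1.51-fold. None of the 46 reached 1 log2 unit. As a median over the list, the 3 stimulated arrays stood 0.271, 0.286 and 0.283 above the unstimulated mean, the unstimulated arrays at -0.039, 0.056 and -0.014 and the IL-10 arrays at 0.016, 0.018 and -0.071.

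Fatty acid oxidation had 16 of 25 higher and 2 lower (median 0.21). Ppargc1b, a coactivator of mitochondrial genes, was at 9.20, 9.21 and 9.46 against 7.64, 7.80 and 7.93, 2.83-fold higher, and Fabp4, a fatty acid carrier, rose 1.51-fold. Cpt1a, which loads fatty acids into mitochondria, fell 1.46-fold. Glycolysis showed no common direction, with 4 of 19 higher and 7 lower (median -0.01). There Pfkp, a phosphofructokinase, rose 2.15-fold, while Aldoc, an aldolase, fell 2.74-fold and the glucose transporter Slc2a3 1.98-fold.

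Heat shock genes had 12 of 21 higher and 3 lower (median 0.29). Hspa1a and Hspa1b, near-identical inducible HSP70 genes that probes may not separate, rose 2.61-fold and 2.2-fold, and Hsph1, an exchange factor of HSP70, 2.11-fold, from 9.81, 9.82 and 9.81 to 11.004, 10.78 and 10.89. Dnajb4, an HSP40 cochaperone, fell 1.83-fold. Antioxidant and glutathione genes had 5 of 33 higher and 16 lower (median -0.14). Cybb, the catalytic subunit of the phagocyte oxidase, was at 9.06, 9.03 and 8.83 against 11.75, 11.12 and 11.46, 5.54-fold lower. Gsr, glutathione reductase, fell 2.33-fold, catalase (Cat) 2.27-fold and Sod1, the cytosolic superoxide dismutase, 2.27-fold. The second probe set of Sod1 gave a smaller difference, -0.21 in place of -1.18. The arrays of the groups lay apart in these 4 genes.

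Genes of mitosis were lower almost throughout, with 50 of 52 lower and 0 higher (median -0.70). Kif23, a kinesin of cell division, was at 8.34, 8.06 and 8.02 against 9.43, 9.46 and 9.37, 2.43-fold lower (log2 -1.28 ± 0.14, adjusted p = 9.28e-09). Cenpf and Cenpe, proteins of the kinetochore, fell 2.3-fold and 2.2-fold, and Ckap2, a spindle protein, 2.1-fold. The 2 not called were Foxm1 (-0.095) and Cks1b (0.013). Leaving out 1 array at a time gave 45 to 50 genes lower and 0 higher, and a stricter filter at the 75th percentile of intensity left 26 tested, 25 of them lower.

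DNA replication genes moved less: 22 of 44 were lower, 3 higher and 19 not called (median -0.20). Ccne2, cyclin E2, was at 8.41, 7.83 and 8.20 against 9.48, 9.08 and 9.35, 2.23-fold lower, Tk1, thymidine kinase, was at 8.80, 8.63 and 8.57 against 9.48, 9.88 and 9.64, and Rrm2, a subunit of ribonucleotide reductase, fell 1.65-fold. By array the mitosis list stood at -0.524, -0.807 and -0.744 from the unstimulated mean on stimulated replicates 1, 2 and 3, and the replication list at -0.105, -0.275 and -0.31. The unstimulated arrays lay at -0.02, 0.079 and -0.046 for mitosis and at -0.091, 0.091 and 0.021 for replication, so replicate 1 was outside their range by little in the latter.

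Regulators of G1 had 14 of 24 lower and 5 higher (median -0.30). They included inhibitors of proliferation: Cdkn1b, the inhibitor p27, fell 2.32-fold, from 10.79, 10.73 and 10.78 to 9.46, 9.53 and 9.66, and Cdkn1c, p57, went from 7.83 to 6.24, under the filter. The antiproliferative genes Btg1 and Btg2 fell 2.26-fold and 2.16-fold.

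**Figure D4:**
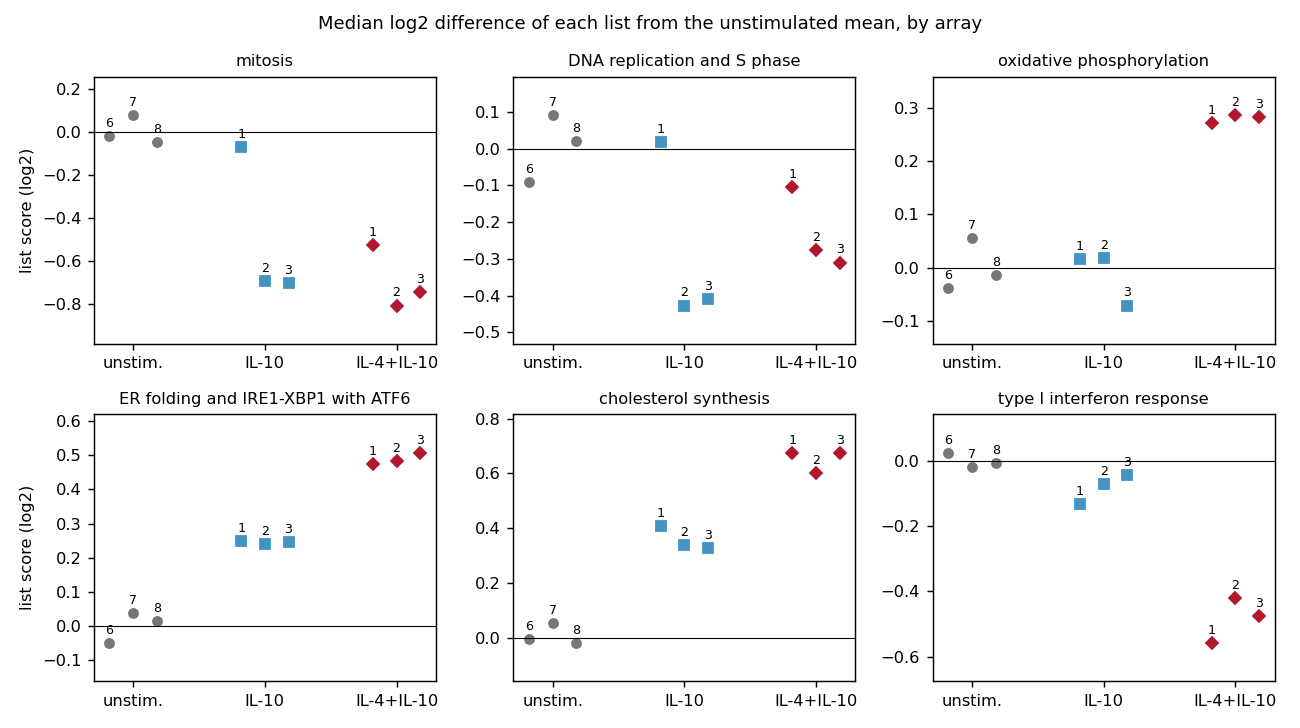
Median log2 difference of the genes of 6 lists from their mean on unstimulated replicates 6 to 8, for each array (replicate number beside the point) of unstimulated (grey circles), IL-10 (blue squares) and IL-4 plus IL-10 (red diamonds). In mitosis, IL-10 replicate 1 (-0.07) lies beside the unstimulated arrays, and the oxidative phosphorylation score is raised on the IL-4 plus IL-10 arrays alone of these 9.

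Of 18 chemokine genes tested, 10 were higher and 5 lower (median 0.52). Besides Ccl8, Ccl7 and Ccl12, which also call in monocytes, were at 11.88, 12.11 and 11.99 against 6.41, 6.59 and 6.62 and at 9.55, 10.04 and 9.94 against 4.08, 4.90 and 4.43, and Ccl24, which draws eosinophils, at 13.06, 13.58 and 13.70 against 6.11, 6.27 and 6.56. The neutrophil chemokines Cxcl1 and Cxcl2 stood at 4.91 against 7.71 and 5.98 against 8.92, so that both fell below the filter. Receptors for chemoattractants had 9 of 15 lower and 4 higher (median -1.01). Cx3cr1 was at 6.02, 6.66 and 5.61 against 8.82, 9.29 and 8.67, and S1pr1, a receptor for sphingosine 1-phosphate, at 5.64 against 7.80. C5ar1, the receptor of complement C5a, fell 3.77-fold, from 9.26, 9.03 and 9.11 to 7.13, 7.47 and 7.07, whereas Ccr1, a receptor for several CC chemokines, rose 3.53-fold.

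Inflammatory genes had 12 of 20 lower and 6 higher (median -0.85), and Toll-like receptor and NF-kappaB genes 14 of 26 lower and 4 higher (median -0.23). Cd14, the co-receptor for lipopolysaccharide, was at 10.41, 10.66 and 10.45 against 13.16, 13.11 and 13.06, 6.08-fold lower (adjusted p = 2.34e-20). Tlr2, the receptor for bacterial lipopeptides, was at 6.88, 6.97 and 6.86 against 10.37, 10.19 and 10.17, and Tlr7, a sensor of single-stranded RNA, fell 2.24-fold. Against that direction Ier3, an immediate early gene, rose 8.43-fold, from 8.48, 8.71 and 8.37 to 11.29, 11.76 and 11.74, and the cell surface receptor Slamf1 went from 5.72 to 7.80.

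Genes of the type I interferon response had 22 of 36 lower and 4 higher (median -0.48). Rtp4, an interferon-induced chaperone of receptors, was at 9.31, 10.01 and 9.60 against 11.53, 11.51 and 11.47, 3.65-fold lower. Ifit3 and Ifit1, which bind viral RNA or its partners, stood at 6.25 against 8.97 and 6.64 against 8.33, and the chemokine Cxcl10 at 5.23 against 7.57. Of the 8 interferon regulatory factors tested, Irf4, which macrophages use in alternative activation, was at 8.57, 8.29 and 8.57 against 5.83, 6.06 and 5.95, Irf1 rose 1.4-fold and Irf2 1.17-fold. Irf7, the amplifier of interferon production, fell 2.23-fold, Irf9 1.4-fold, Irf8 1.37-fold and Irf5 1.21-fold, while Irf3 was not called (-0.041, 95% interval -0.17 to 0.092).

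Receptors for antibody and their signalling chain moved in both directions, with 4 of the 7 genes tested higher and 3 lower (median 0.40). These shares were 57.1% and 42.9%, against 33.7% and 32.8% over all genes. Fcgr2b, the inhibitory IgG receptor, was at 13.74, 13.73 and 13.82 against 11.59, 11.40 and 11.35, 4.98-fold higher (adjusted p = 1.92e-12), and its other 3 probe sets gave 2.51 to 2.87. Fcgr1, the high-affinity activating receptor, was at 10.17, 10.43 and 10.23 against 10.99, 11.08 and 11.02, 1.69-fold lower. Fcgr4 and Fcgr3, activating receptors of lower affinity, rose 1.52-fold and 1.32-fold, and the neonatal receptor Fcgrt 1.51-fold. The common signalling chain Fcer1g fell 1.14-fold and Trim21, the cytosolic receptor, 1.59-fold.

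Of 27 lectins and scavenger receptors 12 were higher and 10 lower (44.4% and 37%, median -0.05), against 33.7% and 32.8% over all genes. Mgl2, a lectin for galactose-type sugars, was at 11.39, 11.55 and 11.77 against 5.11, 5.37 and 5.82, and Cd209e, a DC-SIGN relative, at 7.91, 8.91 and 8.34 against 4.18, 4.08 and 4.07. Clec4e, the lectin Mincle, was at 7.55, 7.83 and 7.55 against 10.19, 10.04 and 10.06, 5.48-fold lower (log2 -2.45, and -1.83 by its second probe set). With all 8 unstimulated arrays the lectin and scavenger count became 11 higher and 12 lower. In complement 5 of 13 were higher and 7 lower (38.5% and 53.8%, median -0.12), and without IL-4 plus IL-10 replicate 1 the count was 6 and 5. Itgax, the CD11c chain of complement receptor 4, rose 2.6-fold and Itgam, the CD11b chain of complement receptor 3, fell 1.74-fold.

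Genes for the uptake of dying cells had 12 of 17 lower and 3 higher (median -0.43). Axl, a receptor kinase that binds apoptotic cells through Gas6, was at 7.08, 7.37 and 7.34 against 9.75, 9.96 and 9.92, 6.14-fold lower (adjusted p = 1.36e-14), and Stab1, a scavenger receptor, fell 3.37-fold. Pros1, protein S, the other bridging ligand of this receptor family, rose 2.01-fold. Mertk, the related kinase, was not called (-0.17, 95% interval -0.42 to 0.079). In antigen presentation, MHC class II had 3 of 10 higher and 1 lower (30% and 10%, median 0.20). The largest change there was in Ifi30, a lysosomal thiol reductase (1.91-fold higher). In MHC class I 4 of 13 were higher and 2 lower (30.8% and 15.4%, median -0.05), led by the immunoproteasome subunit Psmb10 (2.25-fold higher). Over all genes the shares were 33.7% and 32.8%.

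Iron genes had 12 of 25 lower and 8 higher (48% and 32%, median -0.15), against 32.8% lower and 33.7% higher over all genes. With ferroportin lower, Slc11a1, the phagosomal metal transporter Nramp1, fell 3.38-fold, from 11.80, 11.93 and 11.84 to 10.13, 10.21 and 9.97. Tfrc, the transferrin receptor that brings iron in, rose 3.37-fold, from a mean of 10.96 to 12.72. Cd163, the receptor of haemoglobin bound to haptoglobin, went from 4.91 to 7.01, at the filter. Among genes of macrophage identity 23 of 31 were lower and 4 higher (median -0.43), with Adgre4, Cx3cr1, Ms4a6b and Cd14 the furthest.

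Cathepsins, the lysosomal proteases, went both ways at the RNA level, with 5 of 13 higher and 6 lower (median 0.00). These shares were 38.5% and 46.2%, against 33.7% and 32.8% over all genes. Of the 13, 0 differed by 1 log2 unit or more. Ctsk, known from osteoclasts, was at 10.53, 10.42 and 10.41 against 9.28, 9.65 and 9.45, 1.99-fold higher. Ctsl rose 1.25-fold, from 14.35, 14.30 and 14.30 to 14.66, 14.58 and 14.69, and Ctsz 1.22-fold, its other 2 probe sets giving 0.51 and 0.54. Ctsb was called by a small margin (0.091 ± 0.03, adjusted p = 0.0107), a call lost without unstimulated replicate 7 (adjusted p = 0.0781), with all 8 unstimulated arrays (0.329) or with the 2 groups fitted alone (0.22). Further probe sets of Ctsb gave 0.103 (adjusted p = 0.0148), 0.149 (0.00276) and 0.022 (0.783), the last not called. Ctss was at 14.49, 14.47 and 14.56 against 14.49, 14.51 and 14.51, overlapping (0.002, 95% interval -0.074 to 0.077). Napsa, Ctse and Ctsc fell 1.77-fold, 1.59-fold and 1.49-fold. The lysosome list also went both ways, with 14 of 51 higher and 19 lower (median -0.06). That balance turned to 17 higher and 15 lower when each array was centred on its median. There Atp6v0a1, a subunit of the proton pump, stood out with a 2.63-fold rise, from 10.26, 10.41 and 10.17 to 11.63, 11.73 and 11.66. Cst7, cystatin F, an inhibitor of cathepsins, was at 9.17, 9.18 and 9.12 against 6.08, 6.40 and 6.45.

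Transcription factors of macrophage activation had 17 of 40 higher and 10 lower (42.5% and 25%, median 0.12), against 33.7% and 32.8% over all genes. Batf3, a partner of AP-1 proteins, was at 10.68, 10.65 and 10.70 against 7.50, 8.07 and 7.97, 7.12-fold higher. Klf4, a factor that works with STAT6, rose 5.24-fold, from 8.38, 8.41 and 8.34 to 10.82, 10.73 and 10.75, and Tfec, a relative of TFEB, 4.73-fold. Id3, which blocks E-protein factors, went the other way, from 8.97, 8.58 and 7.99 to 6.44, 6.33 and 5.96, under the filter.

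Against IL-10 alone (3 arrays each), which shows what differs once IL-4 is present too, 4468 genes were called (62.5%), 2394 higher (33.5%) and 2074 lower (29%) with the combination. Socs3 was lower with the combination (log2 -2.11, adjusted p = 7.4e-14), at 10.06, 9.94 and 10.09 against 11.82, 12.22 and 12.36 with IL-10. So were Il4ra (-1.19, 3.89e-08) and Saa3, an acute-phase protein (-3.54, 1.5e-11). Saa3 was at 9.20, 9.76 and 9.73 with the combination, 12.73, 13.39 and 13.19 with IL-10 and 9.37, 8.89 and 9.42 in unstimulated cells, so that the combination overlapped only the last. Gja1 did not pass the test (0.14 ± 0.19, adjusted p = 0.524), at 10.29, 10.49 and 10.55 against 9.98, 10.38 and 10.54. Oxidative phosphorylation had 40 of 46 higher and 0 lower than with IL-10 (median 0.32), and STAT3-responsive genes 5 of 32 higher and 20 lower (median -0.35). Mitosis genes had 1 higher and 17 lower of 52, but 2 higher and 3 lower without IL-10 replicate 1. Replication genes had 6 higher and 2 lower of 44, and 17 higher and 2 lower without that array.

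The IL-4 arrays belong with unstimulated replicates 1 to 5 by their numbers, so IL-4 was set against those 5, and the difference between both effects was tested. It was called for 2370 genes (33.1%), 1215 with the larger value for IL-4 plus IL-10 (17%) and 1155 with the smaller (16.1%). The effects of Arg1 were 10.02 with IL-4 plus IL-10 and 7.75 with IL-4 (difference 2.27, adjusted p = 1.61e-12), and those of Ccl8 8.04 and 0.64 (7.41, 1.14e-17). Those of Retnla were 8.56 and 8.62 and did not pass the test (difference -0.065 ± 0.16 SE, adjusted p = 0.788). For Fcgr1 they were -0.75 and -2.27 (1.52, 6.88e-11). Mitosis genes had 0 larger and 48 smaller values of 52 (median -0.73), replication genes 0 and 36 of 44 (median -0.52), cholesterol synthesis 19 and 1 of 22 (median 0.48) and ER folding 26 and 1 of 44 (median 0.28). Oxidative phosphorylation had 1 larger and 5 smaller of 46 (median -0.03), which were few against 33.1% over all genes.

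Set against the effect of IL-4 plus IL-6, the other STAT3 cytokine in combination, 1159 genes differed (16.2%), 588 with the larger value for IL-4 plus IL-10 (8.22%) and 571 with the smaller (7.98%). By at least 1 log2 unit 43 differed (0.601%), with 10 values larger (0.14%) and 33 smaller (0.461%). Irf4 (2.53 with IL-10, 0.34 with IL-6), the chemokine Ccl17 (3.08, 0.92) and Axl (-2.62, -3.77) had larger values with IL-10, with differences of 2.19, 2.16 and 1.15 (adjusted p = 2.38e-08, 2.57e-08 and 6.08e-05). Cd209e, Cd209a, the endothelin receptor Ednrb, Gja1 and Cd163 had smaller values, by -2.60 for Cd209e to -1.94 for Cd163. For Socs3 the effects were 3.27 and 4.78 (-1.51, 1.61e-07). Arg1 did not pass the test (-0.36 ± 0.14, adjusted p = 0.0842).

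**Figure D5:**
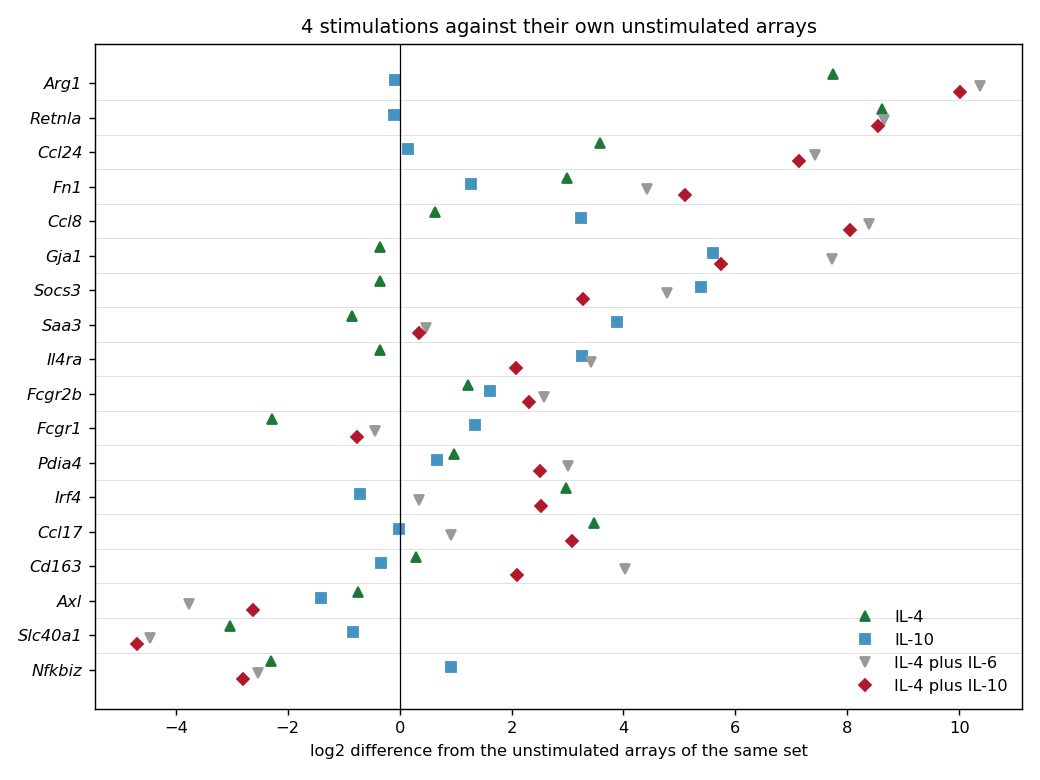
Log2 differences of 18 genes with IL-4 (green triangles) and IL-4 plus IL-6 (grey triangles) from unstimulated replicates 1 to 5, and with IL-10 (blue squares) and IL-4 plus IL-10 (red diamonds) from unstimulated replicates 6 to 8, genes chosen after their values were seen. IL-10 and IL-4 plus IL-10 share their unstimulated arrays, Ccl8 lies at 0.64 with IL-4, 3.24 with IL-10 and 8.04 with both, and Saa3 at 3.88 with IL-10 and 0.34 with both.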

How the data were processed

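RNA of 29 samples of bone marrow-derived macrophages was hybridised to Affymetrix 3' arrays, and the authors deposited log2 intensities. The submitters' processing notes name RMA and GCOS 1.4. Which RMA version was used, and whether in 1 run for the 29 arrays, is not given in the sources used here. RMA pulls arrays to 1 distribution, so changes in total RNA per cell are not seen and large folds are compressed. Array medians were log2 6.95 to 7.03, and no arrays were identical; 6 arrays entered the main comparison, whose number limits the precision.

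Of 22690 probe sets 20380 name 1 gene in the platform annotation supplied, 691 several (not used), 1555 none and 64 are controls. The probe set with the highest mean stood for a gene (12393 genes). Genes with at least 3 arrays over the median of all values (log2 6.99) were tested (7153). All 29 arrays were fitted in limma 3.58.1 (R 4.3.3) with unstimulated replicates 1 to 5 and 6 to 8 as separate groups. The numbers 1 to 5 match those of the IL-4 and IL-6 groups. The numbers 6 to 8 match no stimulated group, and these arrays were taken as controls of the IL-10 groups. The labels do not state this split. Tests are two-sided with Benjamini-Hochberg adjustment over all genes tested, and the script was tested on simulated data. Folds are antilogs of log2 differences and are given where both means exceed the filter. Of 2730 further probe sets of called genes, 1967 were called in the same direction, 691 were not called and 72 were opposite, and of 253 for genes with an absolute log2 difference of at least 1, 249, 4 and 0.

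Named are the 16 largest increases and decreases without overlap, up to 4 called genes a list, the 6 largest in each direction of the other comparisons and 12 genes of the study's question, with further members of small families as values; Jak1, Jak2, Tyk2, Il10rb, Mertk, Csf1r, Cd68, Lbr, Scap, Il1rn, Cox7c, Foxm1 and Cks1b were named after their values were seen. Members and lists were chosen with earlier results of these data known. IL-4 plus IL-10 and IL-10 share replicate numbers, and same-numbered arrays deviated together from their group means (correlations 0.596, 0.637 and 0.776), so the numbers pair them. Stimulated replicates 1, 2 and 3 also deviated with unstimulated replicates 6, 7 and 8 (0.364, 0.58 and 0.711, other combinations -0.521 to -0.038), a link the labels do not give, so it was not fitted. Alternatives were other normalization, filters, probe set rules, eBayes settings, array weights, control sets, thresholds and leaving out single arrays.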

Additional observations from a re-analysis of the deposited data

Results flagged for a closer look

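Of 523 probe sets over the filter that the annotation used here ties to no gene, 146 were called higher and 186 lower with IL-4 plus IL-10, 24 and 11 of them by at least 1 log2 unit. They belong to data outside the gene-level comparisons, and 4 are given as values. Probe set 1422411_s_at was at 11.73 ± 0.23 (SD, n = 3) with IL-4 plus IL-10 and 6.51 ± 0.37 without, a log2 difference of 5.22. Probe set 1449846_at stood at 12.16 ± 0.15 against 7.15 ± 0.25, a difference of 5.01. Lower were probe set 1437302_at, at 4.13 ± 0.33 against 7.44 ± 0.06 (difference -3.31), and probe set 1452426_x_at, at 9.61 ± 0.47 against 11.12 ± 0.27 (difference -1.51).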

How the results depend on the processing

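IL-4 plus IL-10 and its unstimulated arrays were not analysed as pairs. The labels give them as replicates 1 to 3 and 6 to 8, with no shared number. Their correlated deviations are a hint from the data, not the design. What a paired fit would change in the calls was not tested. Against IL-10, 4468 genes were called; with the arrays of those 2 groups alone the count was 3880, and 4805 when the replicate block was added to that fit. Of 202 called genes among 206 named ones with a fit, 196 kept their call under every alternative applied to them. Cst3, Ctsb, H2-DMa, Ighm, Ngp and S100a9 lost it at least once. The adjusted p under 0.01, the minimum log2 difference and the fit of every probe set by itself were not applied to these genes. Genes that the filter at the 75th percentile removed were not counted as lost. Against unstimulated cells the count of 4753 became 3060 with the filter at the 75th percentile, 527 with an absolute log2 difference of at least 1 as well, 7808 when every probe set was tested by itself, and 4363 to 4680 without single arrays. Against IL-10 it went from 4468 to 2946 with that filter, to 469 with that difference, and to 4117 to 4341 without single arrays. For the difference from the IL-4 effect, 2370 became 1539 at an adjusted p under 0.01, 169 with that difference and 1940 to 2666 without single arrays. For the difference from the IL-4 plus IL-6 effect, 1159 became 2087 with array weights, 645 at an adjusted p under 0.01, 43 with that difference and 809 to 1494 without single arrays. Fewer genes or a stricter rule lower such counts by construction; the cause of the rise with array weights was not tested. The balance of calls turned in cathepsins (9 called, 5 higher) with the filter at the 75th percentile, in lysosome (32, 17 higher) with median centring, in scavenger receptors (23, 11 higher) with all 8 unstimulated arrays, in growth factors (18, 8 higher) without a filter, in complement (11, 6 higher) without IL-4 plus IL-10 replicate 1 and in costimulatory ligands (15, 7 higher) without that array or unstimulated replicate 6, the counts without single arrays being 9 to 11 and 14 to 17. Leaving out single arrays was added for the lists after the data were seen. Genes near the filter have only values that background may limit.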

Other observations

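In this section most lists had shares of calls nearer those over all genes tested (33.7% higher, 32.8% lower) than many lists above. Genes linked to cell fusion (47.1% and 41.2% of 17) and costimulatory ligands (45% and 40% of 20) were over both shares. Further off were integrins and adhesion (22.2% higher and 55.6% lower of 18) and retinoic acid and retinol (62.5% and 25% of 8). All these counts are given as values, and nothing is read from them about the groups. Hbegf, a growth factor of the EGF family, was at 9.80, 9.55 and 9.74 with IL-4 plus IL-10 and 6.22, 6.56 and 6.37 without, and Pdgfc, of the PDGF family, at 9.42, 9.45 and 9.57 against 6.98, 6.58 and 6.57, both from under to over the filter. In the list of growth factors and matrix 8 of 19 were higher and 6 lower (42.1% and 31.6%, median 0.05). The coagulation factors F7 and F10 rose 4.9-fold and 4.18-fold, F7 from 8.03, 8.48 and 7.90 to 10.46, 10.70 and 10.13, and the collagenase Mmp13 rose 3.57-fold, within a list of proteases and inhibitors with 10 of 24 higher and 9 lower (41.7% and 37.5%). Among prostaglandin and leukotriene genes (8 of 20 higher and 7 lower, 40% and 35%), Hpgds, which makes prostaglandin D2, fell 5.74-fold, from 10.81, 10.81 and 10.82 to 8.45, 8.24 and 8.19, beside Hpgd. Aldh1a2, which makes retinoic acid, and Rbp4, a retinol carrier, were at 7.83 against 4.13 and 7.78 against 4.23, unstimulated means being under the filter.

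Of 20 costimulatory and coinhibitory ligands, which act on T cells, 9 were higher and 8 lower (45% and 40%). Pdcd1lg2 (PD-L2) was at 10.72, 10.95 and 11.06 against 5.69, 5.74 and 5.53, Cd274 (PD-L1) rose 2.5-fold and the costimulator Cd40 3.13-fold. Without IL-4 plus IL-10 replicate 1, and likewise without unstimulated replicate 6, the count became 7 higher and 8 lower. Integrins and adhesion molecules had 10 of 18 lower and 4 higher (median -0.37), with Itga6, a laminin receptor chain, 3.04-fold and Alcam 2.79-fold lower. Genes linked to cell fusion had 8 of 17 higher and 7 lower. Cdh1 was at 9.04, 8.30 and 8.71 against 3.39, 3.70 and 3.46, Ocstamp, a fusion protein, at 9.72 against 6.00, and Acp5, tartrate-resistant acid phosphatase, rose 2.86-fold. In the hypoxia list 6 of 18 were higher and 7 lower, with Vegfa 2.24-fold and Ndrg1 2.1-fold lower and the factor Bhlhe40 4.47-fold higher. A further probe set of Vegfa gave a smaller log2 difference (-0.39 in place of -1.16). Further ones of Ndrg1 gave -0.895, -0.566, -0.31 and -1.196, against -1.07 for the one used.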
